A study of Arabidopsis thaliana with 14 samples.

Results

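The plastid genome of Arabidopsis thaliana carries genes for 3 machineries that are described here, the NAD(P)H dehydrogenase-like complex (ndh genes), the plastid-encoded RNA polymerase (rpo genes) and the plastid ribosome (rps and rpl genes). Members were the probe sets that name a single gene on the plastid genome in the platform annotation and whose symbol begins with ndh, rpo, rps or rpl. There were 29 of them among the 22746 probe sets that are not controls, with 1 probe set per gene: 10 ndh genes (ndhA, ndhC, ndhD, ndhE, ndhF, ndhG, ndhH, ndhI, ndhJ and ndhK), 4 rpo genes (rpoA, rpoB, rpoC1 and rpoC2), 8 rps genes (rps2, rps3, rps4, rps14, rps15, rps16, rps18 and rps19) and 7 rpl genes (rpl14, rpl16, rpl20, rpl22, rpl32, rpl33 and rpl36). Another 40 probe sets named a single plastid gene outside these families, mostly photosystem, cytochrome complex and ATP synthase genes, and served as the plastid background. A further 6 ndh, rps or rpl probe sets that name several gene entries were left out.

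Transcripts were measured on Affymetrix ATH1 arrays in developing seeds of the Ws-0 ecotype at the bending-cotyledon stage, when the cotyledons of the embryo measured 100 to 140 µm. All samples came from untreated plants of 38 to 46 days under continuous light. Laser microdissection of fixed, paraffin-embedded seeds gave 6 compartments, and whole seeds were taken as a further sample type. The groups were whole seeds, embryo proper (the embryo without its suspensor), chalazal endosperm, micropylar endosperm, peripheral endosperm, chalazal seed coat and general seed coat, each with 2 biological replicates and 14 arrays in all. RNA was amplified from 2 to 5 ng for the micropylar endosperm and 5 to 6 ng for the other groups. In the labels of the micropylar samples the cell type field reads embryo proper, while title, source and description read micropylar endosperm, and the samples were grouped as micropylar endosperm.

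The plastid-encoded RNA polymerase is a bacterial-type enzyme whose core consists of an alpha subunit (rpoA), a beta subunit (rpoB) and the split beta-prime subunit (rpoC1 and rpoC2). It transcribes most photosynthesis genes of the plastid, whereas a nuclear-encoded phage-type polymerase transcribes many housekeeping genes, the rpoB gene cluster among them. The plastid ribosome is also bacterial in type, with the proteins of its small subunit (rps) and large subunit (rpl) encoded partly in the plastid and partly in the nucleus. The NAD(P)H dehydrogenase-like complex sits in the thylakoid membrane and takes part in cyclic electron flow around photosystem I. Its membrane arm is built from NdhA to NdhG, and NdhH to NdhK belong to the arm exposed to the stroma. Developing Arabidopsis embryos are green at this stage and their plastids pass through a photosynthetic phase before the seed dries.

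The deposited values are linear signal intensities that share a 2% trimmed mean of 500 on every array. Array medians lay between 99.0 and 188, and replicates correlated with r between 0.8917 and 0.9668 across all probe sets, against 0.6641 to 0.9123 for arrays of different groups. The 29 members summed to 1.57% and 1.49% of all intensity on the embryo proper arrays, against 0.335% to 0.867% on the 10 other compartment arrays. Among embryo markers YAB3 (an abaxial cell fate factor) averaged 2101 ± 37.7 in embryo proper and at most 45.1 in any other compartment (SD, n = 2 each), and STOMAGEN averaged 979 ± 173 and at most 43.0. The other two embryo markers with a probe set were less distinct. PAP85 averaged 1908 ± 22.3 in embryo proper, against 495 ± 330 in micropylar and 285 ± 355 in peripheral endosperm, and PHV averaged 552 ± 15.1 in embryo proper, against 822 ± 49.1 in peripheral endosperm, and was not called between embryo proper and endosperm (0.79, adjusted p = 0.261). All 6 seed coat markers with a probe set were lower in embryo proper and in endosperm than in the mean of the 2 seed coat regions. BAN, DFR, ARA12 and AT2G22900 were also higher in each seed coat region than in embryo proper and every endosperm region. For AT2G22900 the gap was small, with 2358 in peripheral endosperm and 3434 in chalazal seed coat. General seed coat averaged 23.4 for SWEET10 and 144 for AT3G50990, against 58.9 and 136 in chalazal endosperm. Of the 3 endosperm markers with a probe set, SWEET11 averaged 30.2 in chalazal endosperm, against 4182 in micropylar and 11559 in peripheral endosperm, and AT1G50650 averaged 77.3 in chalazal endosperm, against 2933 in micropylar and 15046 in peripheral endosperm. AGL62, the remaining one, averaged at most 34.2 in any compartment. The chalazal endosperm was thus identified by its label alone. The 3′ to 5′ signal ratio of the actin control probe sets was highest in embryo proper (2.38 and 2.06), against 0.440 to 1.79 on the 10 other compartment arrays, while that of GAPDH was 3.26 and 3.65 in embryo proper, within the 2.17 to 7.49 of the others, and highest on micropylar endosperm replicate 3. The part of either ratio in the results below was not tested. In these bulk samples fewer plastids, fewer plastid-rich cells and less RNA per plastid cannot be told apart. How well the RNA amplification captured plastid transcripts in each compartment was not tested.

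Most members were highest in the embryo proper and lowest in the chalazal seed coat. The embryo proper had the highest compartment mean for 25 of the 29 members (8 of 10 ndh, 4 of 4 rpo, 7 of 8 rps and 6 of 7 rpl genes), against 9 of the 40 other plastid genes. The chalazal seed coat had the lowest mean for 25 members and for 38 of the 40 other plastid genes. Both embryo arrays lay above all 10 other compartment arrays for 21 of the 29 members, where 8.25% of all probe sets did so, and for 5 of the 40 other plastid genes. Both chalazal seed coat arrays lay below all 10 others for 21 members and for 32 of the other plastid genes, against 3.61% of all probe sets. The gap between the highest and the lowest compartment mean of a member ran from 0.94 to 3.34 on the log2 scale, with a median of 2.35. In the limma F test over the 6 compartments 26 of the 29 members passed an adjusted p of 0.05, where 47.4% of all probe sets did, and the 3 that did not were ndhC (adjusted p = 0.0606), ndhF (0.235) and rpl33 (0.0502).

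**Figure D1:**
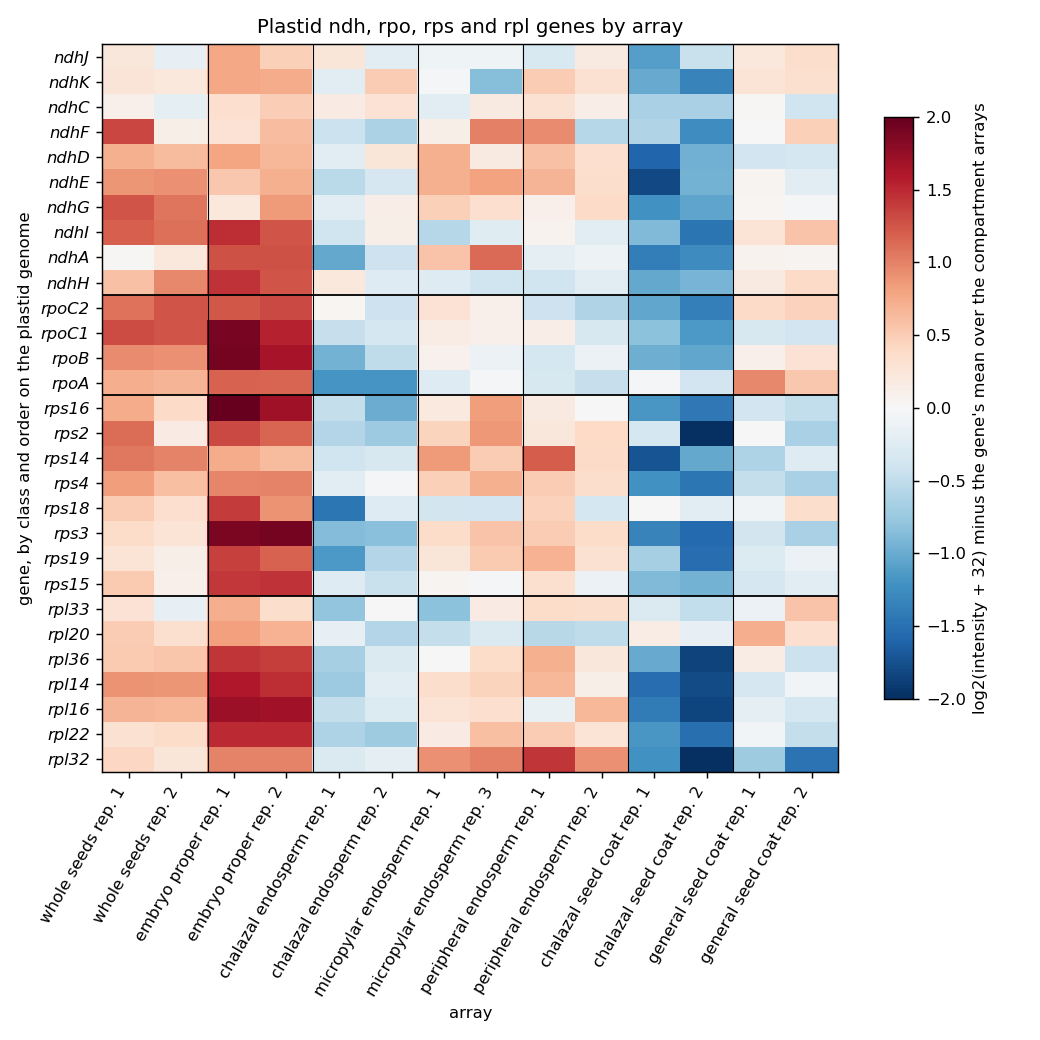
Colour gives log2(intensity + 32) of each of the 29 genes (rows, by class and by order on the plastid genome) on each of the 14 arrays (columns), minus that gene's mean over the 12 compartment arrays. The 2 embryo proper columns are red for nearly every gene, the 2 chalazal seed coat columns are blue for most, and rpoA, rps18, rpl20 and rpl33 are pale there.

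The RNA polymerase genes were the class with the greatest median difference between embryo proper and endosperm. For rpoB (probe set 244999_at), the intensity was 9252 and 7728 in embryo proper, 1243 and 1709 in chalazal endosperm, 2582 and 2238 in micropylar endosperm, and 1906 and 2232 in peripheral endosperm. It was 1214 and 1168 in chalazal seed coat and 2622 and 2993 in general seed coat, and whole seeds had 4700 and 4629. The embryo arrays stood alone at the top, general seed coat lay just above the highest endosperm array, and chalazal seed coat lay at the bottom. The difference between embryo proper and the mean of the 3 endosperm regions was 2.11 ± 0.22 on the log2(intensity + 32) scale (limma, SE, adjusted p = 1.82e-06), where a difference of 1 is a 2-fold difference in intensity + 32.

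For rpoC1 (244998_at), which encodes the amino-terminal part of the beta-prime subunit, embryo proper had 11278 and 8772. Its endosperm values were 2178 and 2341 (chalazal), 3327 and 3251 (micropylar) and 3305 and 2414 (peripheral), its seed coat values were 1683 and 1344 (chalazal) and 2404 and 2304 (general), and whole seeds had 7502 and 7263. The general seed coat thus lay among the endosperm arrays and the embryo arrays lay far above them, with a difference of 1.84 ± 0.21 against endosperm (adjusted p = 6.33e-06) and 2.38 ± 0.23 against seed coat (adjusted p = 1.78e-07). For rpoC2 (244997_at), the beta-double-prime part, embryo proper had 5545 and 5824, close to whole seeds at 4939 and 5581. The other compartments had 2390 and 1721 in chalazal endosperm, 2827 and 2484 in micropylar endosperm, 1725 and 1506 in peripheral endosperm, 1114 and 880.5 in chalazal seed coat and 3014 and 3206 in general seed coat. General seed coat was therefore above every endosperm array for rpoC2, and chalazal seed coat was below every other array. The rpoC2 difference was 1.45 ± 0.22 against endosperm (adjusted p = 0.000119) and 1.67 ± 0.23 against seed coat (adjusted p = 1.92e-05).

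The alpha subunit gene rpoA (244978_at) had another order of compartments. Its intensity was 14548 and 14450 in embryo proper and 12453 and 9313 in general seed coat, and whole seeds had 10646 and 10254. Chalazal seed coat had 6311 and 4901, which overlapped micropylar endosperm at 5363 and 6280 and peripheral endosperm at 5148 and 4630, and chalazal endosperm had the lowest values at 2798 and 2822. Embryo proper exceeded endosperm by 1.74 ± 0.19 (adjusted p = 3.48e-06) but seed coat by only 0.90 ± 0.20 (adjusted p = 0.002), which missed the 2-fold criterion. Across the class, 4 of 4 rpo genes were called higher in embryo proper than in endosperm and 3 of 4 higher than in seed coat, a call being an adjusted p under 0.05 over all probe sets with a log2 difference of at least 1.

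**Figure D2:**
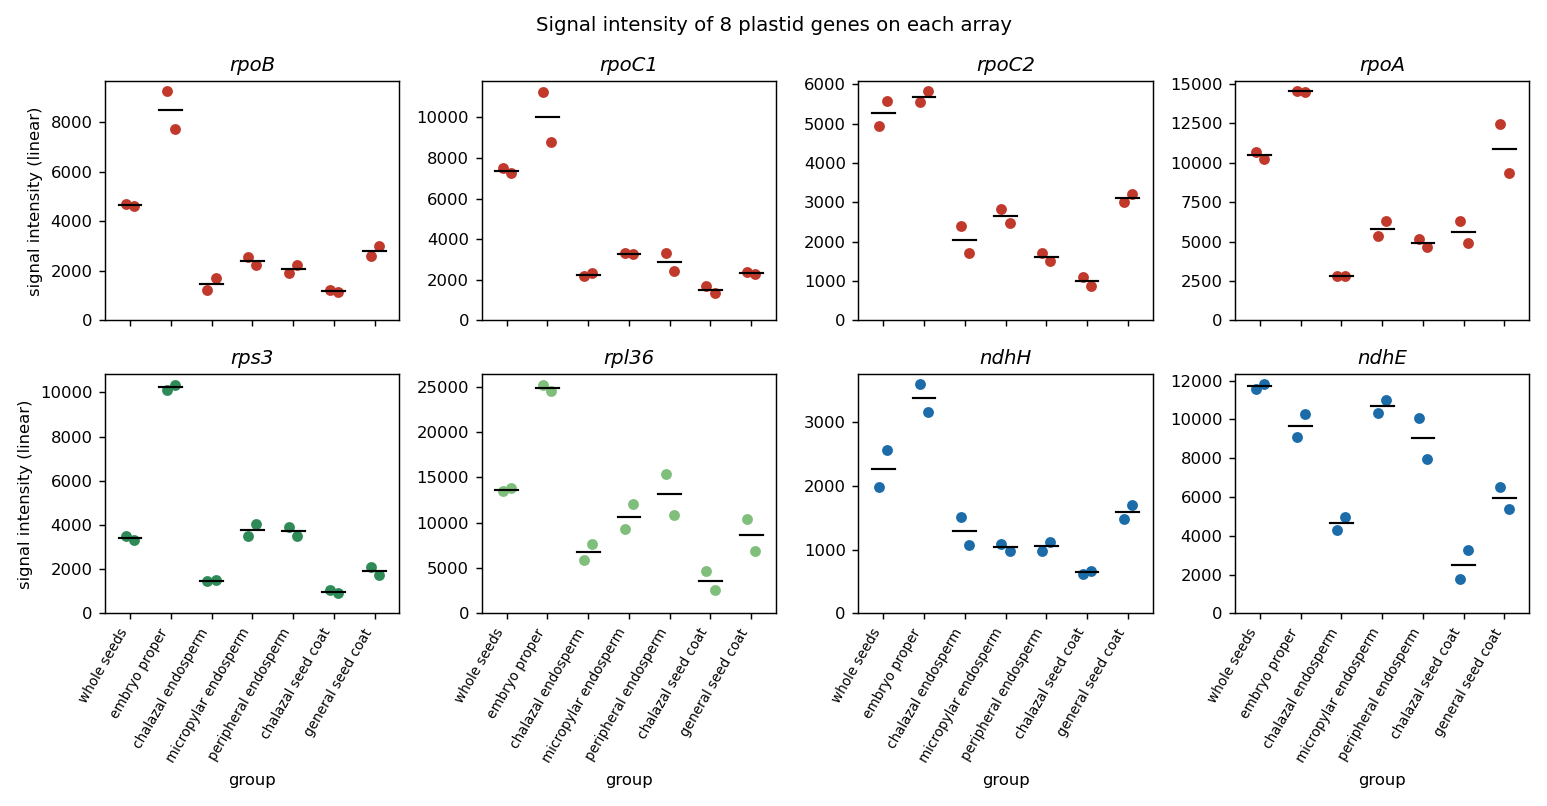
Linear signal intensity (y axis, from 0) of 8 genes on every array, by group; points are the 2 replicates of a group and bars their mean. The embryo proper is highest among the compartments for all but ndhE. General seed coat has the next highest mean for rpoA, rpoB, rpoC2 and ndhH. The ndhE gene is no higher in embryo proper (9089 and 10260) than in micropylar endosperm (10326 and 11021).

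Among genes of the small ribosomal subunit, rps3 (244984_at), whose product lies at the entry of the messenger RNA channel, spread most. Embryo proper had 10112 and 10342, against 1469 and 1503 in chalazal, 3520 and 4067 in micropylar and 3890 and 3525 in peripheral endosperm. The seed coat had 1064 and 903.2 (chalazal) and 2093 and 1727 (general), and whole seeds had 3499 and 3305. Micropylar and peripheral endosperm were intermediate and overlapped, and every embryo array exceeded every other array, by 1.88 ± 0.21 against endosperm (adjusted p = 4e-06) and 2.87 ± 0.22 against seed coat (adjusted p = 1.53e-08).

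For rps16 (245049_at), embryo proper had 4700 and 3667 and whole seeds 1887 and 1462. The endosperm regions had 793.6 and 544.6 (chalazal), 1274 and 2000 (micropylar) and 1266 and 1109 (peripheral), and the seed coat had 480.1 and 391.0 (chalazal) and 847.7 and 778.1 (general). This order matched that of rps3, with differences of 1.91 ± 0.28 against endosperm (adjusted p = 6.71e-05) and 2.74 ± 0.29 against seed coat (adjusted p = 7.84e-07). For rps2 (244996_at), embryo proper had 4756 and 4233, and the endosperm had 1239 and 1120 (chalazal), 2578 and 3462 (micropylar) and 2197 and 2486 (peripheral). The 2 chalazal seed coat arrays differed widely, at 1458 and 406.5, while general seed coat had 1885 and 1180 and whole seeds 4112 and 2113. The rps2 call against endosperm (1.14 ± 0.36, adjusted p = 0.0367) was lost in 8 of 21 alternative settings, with adjusted p up to 0.284. The rps18 gene (244969_at) varied least among the rps members and was uneven between replicates: embryo proper had 3282 and 2314, chalazal endosperm 431.7 and 1026, micropylar endosperm 948.0 and 939.6 and peripheral endosperm 1703 and 956.0. Chalazal seed coat had 1239 and 1045, general seed coat 1172 and 1575, and whole seeds 1759 and 1562. The seed coat and endosperm arrays of rps18 overlapped, and embryo proper exceeded endosperm by 1.53 ± 0.32 (adjusted p = 0.00208), a call that was lost without embryo proper replicate 1 (adjusted p = 0.0983). The remaining small subunit genes split: rps15 (6784 and 6910 in embryo proper, against 1844 to 3148 in endosperm) and rps19 (10315 and 9026, against 1772 to 6451) were called higher in embryo proper than in endosperm, while rps4 (22151 and 22392, against 9699 to 18379) and rps14 were not.

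Of the genes of the large subunit, rpl14, rpl16, rpl22 and rpl36 were likewise highest in embryo proper and lowest in chalazal seed coat, with peripheral and micropylar endosperm in between and overlapping. The rpl16 gene (244983_at) had 17742 and 17356 in embryo proper, 3856 and 4447 in chalazal endosperm, 6507 and 6798 in micropylar endosperm and 4867 and 8551 in peripheral endosperm. It had 2030 and 1486 in chalazal seed coat, 4760 and 4203 in general seed coat and 8605 and 8602 in whole seeds. The embryo was clear of all other compartments, by 1.64 ± 0.22 against endosperm (adjusted p = 3.15e-05) and 2.64 ± 0.23 against seed coat (adjusted p = 7.81e-08). The neighbouring rpl14 gene (244982_at) had 13786 and 12658 in embryo proper, 2729 and 3892 in chalazal, 5815 and 6186 in micropylar and 7247 and 4905 in peripheral endosperm. Its seed coat values were 1557 and 1286 (chalazal) and 3580 and 4384 (general), with 8477 and 8366 in whole seeds. General seed coat and chalazal endosperm overlapped for rpl14, and embryo proper exceeded endosperm by 1.43 ± 0.21 (adjusted p = 0.000107). The rpl22 gene, with 10780 and 10774 in embryo proper against 2296 to 5790 in endosperm, and rpl36, with 25232 and 24487 against 5912 to 15391, were also clear of all other compartments.

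The embryo was not the highest compartment for rpl32 (244960_at). Embryo proper had 7433 and 7406, micropylar endosperm 7030 and 7527 and peripheral endosperm 10041 and 7012, so these 3 overlapped. Chalazal endosperm had 3025 and 3266, chalazal seed coat 1584 and 698.5, general seed coat 2247 and 1308 and whole seeds 4955 and 4396. The rpl32 difference between embryo proper and endosperm was 0.36 ± 0.28 (adjusted p = 0.45), while embryo proper exceeded seed coat by 2.44 ± 0.29 (adjusted p = 3.29e-06). The rpl33 gene (244968_at) varied least of all members. It had 20476 and 15745 in embryo proper, 7105 and 12357 in chalazal endosperm, 6965 and 13780 in micropylar endosperm and 15896 and 15698 in peripheral endosperm. Chalazal seed coat had 10085 and 8749, general seed coat 11349 and 18399 and whole seeds 15052 and 10980, so that embryo proper overlapped peripheral endosperm and general seed coat overlapped both. The rpl20 gene (244970_at) was high in embryo proper (16222 and 14976) and in general seed coat (15287 and 11649), lower in chalazal seed coat (10153 and 8179) and whole seeds (13068 and 11500), and lay between 6123 and 8244 in the 3 endosperm regions. Its general seed coat overlapped the embryo, and embryo proper exceeded endosperm by 1.19 ± 0.19 (adjusted p = 0.000199) but seed coat by 0.50 ± 0.20 (adjusted p = 0.0729).

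Among the ndh genes embryo proper was called higher than endosperm for ndhA, ndhH and ndhI and not for the other 7. The ndhA gene (244936_at), for a membrane arm subunit, had 6765 and 6784 in embryo proper and 4168 and 6130 in micropylar endosperm. It had 1357 and 2083 in chalazal endosperm, 2469 and 2592 in peripheral endosperm, 1051 and 1143 in chalazal seed coat, 2937 and 2892 in general seed coat and 2852 and 3245 in whole seeds. Micropylar endosperm came nearest to the embryo, and the difference between embryo proper and endosperm was 1.27 ± 0.23 (adjusted p = 0.000627). The ndhI gene (244935_at), for an iron-sulfur subunit of the stromal arm, had 4740 and 4089 in embryo proper and 3923 and 3661 in whole seeds. It had 1268 and 1829 in chalazal, 1128 and 1418 in micropylar and 1771 and 1455 in peripheral endosperm, 898.3 and 595.2 in chalazal seed coat and 2043 and 2514 in general seed coat. General seed coat was thus above every endosperm array for ndhI. For ndhH (244937_at) embryo proper had 3600 and 3159, against 1512 and 1080 in chalazal, 1088 and 984.7 in micropylar and 980.3 and 1125 in peripheral endosperm. General seed coat had 1488 and 1704, chalazal seed coat 623.5 and 670.2 and whole seeds 1983 and 2558. Embryo proper exceeded endosperm by 1.57 ± 0.25 for each of ndhI (adjusted p = 0.000192) and ndhH (adjusted p = 0.000176).

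The ndhC gene (245012_at) varied least in the class. It had 1808 and 2019 in embryo proper, 1603 and 1760 in chalazal, 1232 and 1614 in micropylar and 1763 and 1573 in peripheral endosperm. Chalazal seed coat had 898.4 and 898.3, general seed coat 1447 and 1073 and whole seeds 1542 and 1247. Embryo proper stood slightly above the others and chalazal seed coat slightly below, and neither the difference from endosperm (0.27 ± 0.25, adjusted p = 0.546) nor the F test passed. The ndhF probe set was dim, with 37.9 to 388 over all arrays, and its replicates differed by up to 1.51 on the log2 scale, in peripheral endosperm. For ndhE and ndhG the differences between embryo proper and endosperm were 0.34 ± 0.22 (adjusted p = 0.352) and 0.33 ± 0.23 (adjusted p = 0.398). For ndhD, embryo proper had 6195 and 5665, against 3068 to 5853 in endosperm and 1165 to 2783 in seed coat. For ndhJ, embryo proper had 3037 and 2475, against 1428 to 2111 in endosperm and 811.5 to 2259 in seed coat.

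In the comparison of embryo proper with the mean of the 3 endosperm regions, 18 of the 29 members were called higher and none lower, where 8.84% of all probe sets were called higher and 6.52% lower. They were 3 of 10 ndh genes, 4 of 4 rpo genes, 6 of 8 rps genes and 5 of 7 rpl genes. All 29 differences were positive, also under quantile normalisation, median centring and both other pseudocounts. The median difference was 1.79 for rpo, 1.35 for ribosomal protein and 0.54 for ndh genes, against -0.04 for the 40 other plastid genes and -0.04 for all probe sets. Of the other plastid genes 3 were called higher (atpB, ycf4 and cemA) and 1 lower (psbA). The members not called were ndhC, ndhD, ndhE, ndhF, ndhG, ndhJ, ndhK, rps4, rps14, rpl32 and rpl33, of which rps4 had an adjusted p of 0.00862 with a difference of 0.69 ± 0.17.

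Against the mean of the 2 seed coat regions, 23 of the 29 members were called higher in embryo proper and none lower. Of all probe sets 13.4% were called higher and 14.0% lower. The calls were 7 of 10 for ndh, 3 of 4 for rpo, 8 of 8 for rps and 5 of 7 for rpl genes, and 18 of the 40 other plastid genes were called higher as well. Median differences were 1.27 for ndh, 1.93 for rpo and 2.03 for ribosomal protein genes, against 0.91 for other plastid genes and -0.20 for all probe sets. The uncalled members were ndhC, ndhF, ndhJ, rpoA, rpl20 and rpl33.

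**Figure D3:**
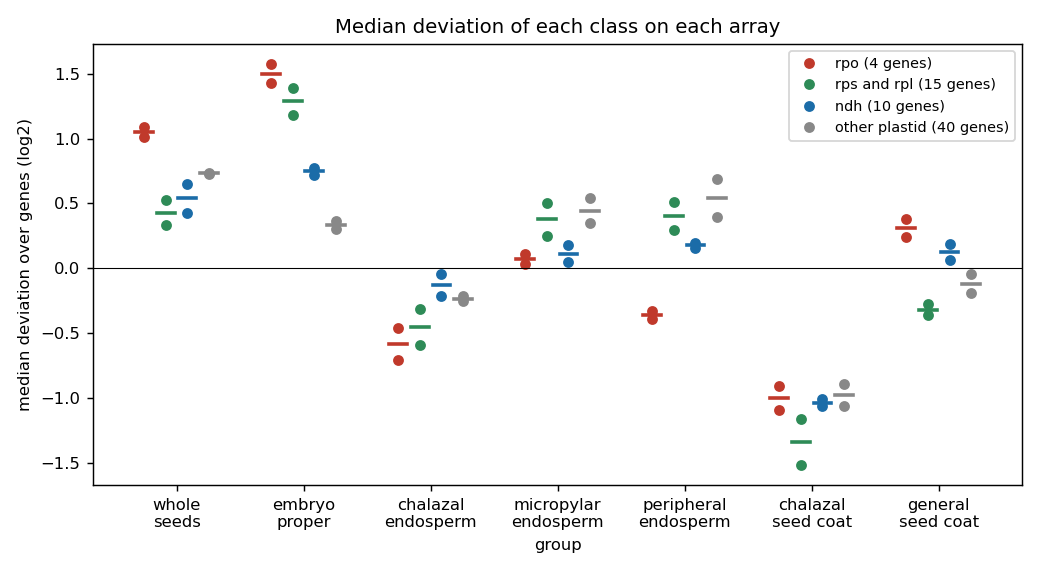
Each point is 1 array and gives the median, over the genes of a class, of log2(intensity + 32) minus the gene's mean over the 12 compartment arrays; bars are the mean of the 2 replicates. In embryo proper the rpo (1.57 and 1.43) and ribosomal protein medians (1.39 and 1.18) lie above ndh (0.77 and 0.72) and other plastid genes (0.37 and 0.30), and in peripheral endosperm the rpo medians (-0.33 and -0.39) lie below the other classes.

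The plot of class medians shows that the classes were not raised in parallel. In embryo proper the rpo and ribosomal protein medians stood above the ndh median, and the ndh median stood above that of the other plastid genes, on both arrays. Single genes did not all keep this order, with ndhI at 1.47 and 1.26 and rps14 at 0.74 and 0.63. The values that follow are class medians. Peripheral endosperm had another order, with the other plastid genes at 0.69 and 0.40, the ribosomal protein genes at 0.51 and 0.30, the ndh genes at 0.20 and 0.16 and the rpo genes at -0.33 and -0.39. In general seed coat the rpo genes were highest, at 0.24 and 0.38, and the ribosomal protein genes lowest, at -0.28 and -0.36. Whole seeds again had rpo genes on top, at 1.01 and 1.09, above other plastid genes at 0.73 and 0.74.

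To set the members against the plastid transcriptome rather than against all transcripts, each array was also centred on the median deviation of the 40 other plastid genes, a comparison chosen after the data were seen. On this scale 17 of the 29 members were called higher in embryo proper than in endosperm (3 ndh, 4 rpo, 5 rps and 5 rpl genes), where 7.57% of all probe sets were called higher and 6.94% lower. Against seed coat 14 members were called higher, of which 11 were ribosomal protein genes, 2 were rpo genes and 1 was ndhA. Of all probe sets 6.50% were called higher there and 46.0% lower. Among the 40 other plastid genes, 3 were called higher and 1 lower against endosperm on this scale. Against seed coat 4 of them were called higher and 0 lower. Centring on the median log2 level of the other plastid genes in place of their median deviation left 10 members called higher against endosperm, where 4.70% of all probe sets were called higher and 15.8% lower, and 5 against seed coat, where 4.24% were called higher and 68.2% lower, with positive differences for 22 and 19 of 29. Between endosperm and seed coat 0 of the 40 other plastid genes were called higher or lower on the deviation scale. The centring shifts every probe set, and the median difference of all probe sets was -0.90 there. In that comparison 3 members were called lower, where 43.4% of all probe sets were. They were rpoA at -1.63 ± 0.16 (adjusted p = 1.22e-07), rpl20 at -1.48 ± 0.16 (adjusted p = 4.24e-07) and rps18 at -1.20 ± 0.25 (adjusted p = 0.000723). Only rpl32 was called higher there, where 2.98% of all probe sets were, and not without chalazal seed coat replicate 2.

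**Figure D4:**
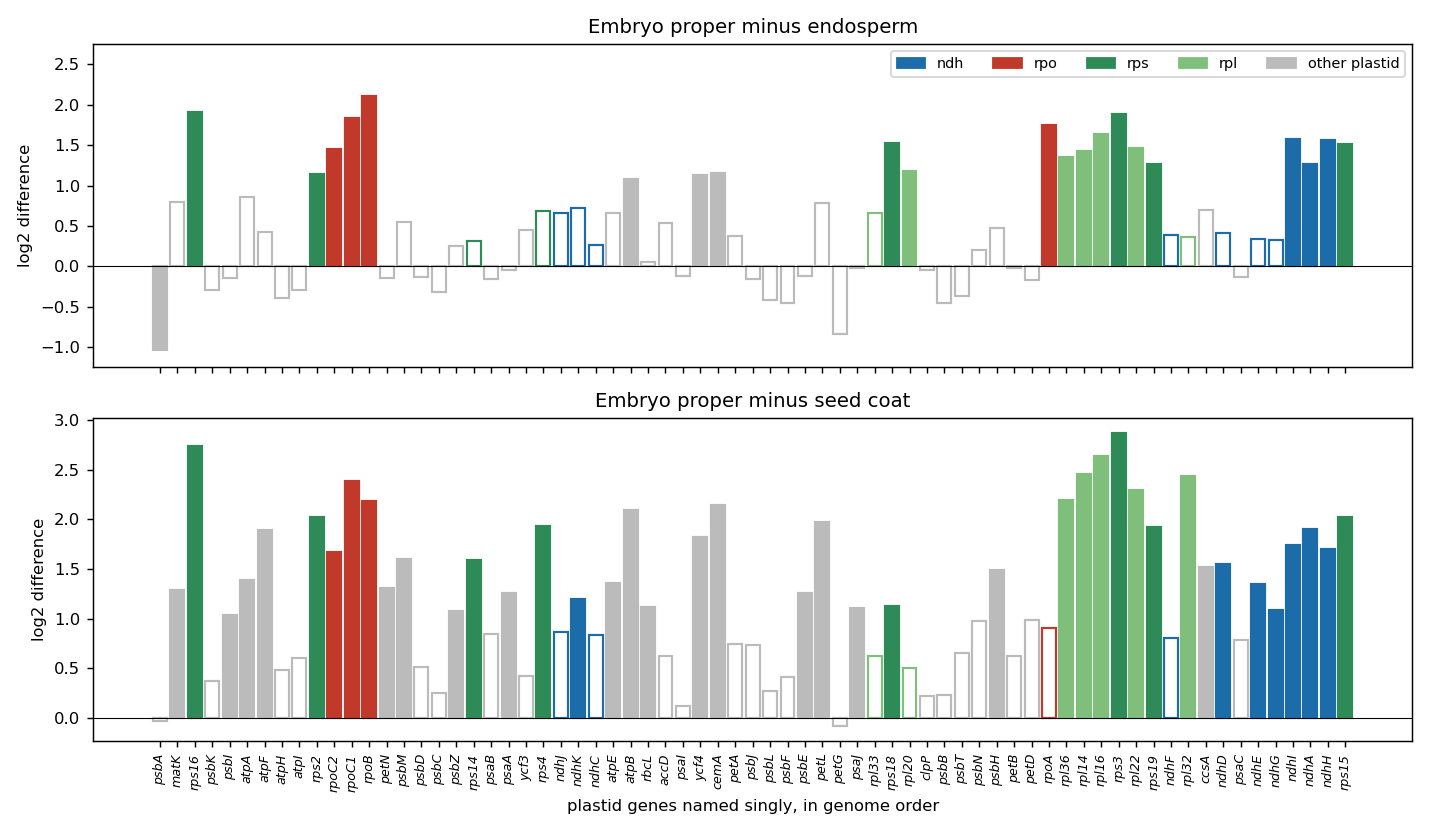
Bars give the log2 difference of embryo proper minus endosperm (top) and embryo proper minus seed coat (bottom) for the 69 singly named plastid genes in their order on the plastid genome; filled bars are called and open bars are not. In the top panel called members stand in blocks, rps2 to rpoB, rpoA to rps19 and ndhI to rps15, with rps16, rps18 and rpl20 apart from them.

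Profiles of members over the 6 compartment means were compared within and between transcription units. The 43 pairs of members in a shared unit had a median r of 0.92 (0.52 to 0.99), 21 of them from the ribosomal protein cluster that ends in rpoA, against 0.79 (-0.21 to 0.99) for the 363 other pairs of members. The rpoB, rpoC1 and rpoC2 genes form 1 transcription unit, and their profiles correlated with r between 0.87 and 0.95. In the long cluster of ribosomal protein genes that ends in rpoA, the 6 ribosomal protein members (rps19, rpl22, rps3, rpl16, rpl14 and rpl36) correlated with each other at 0.94 to 0.99. The last gene of that cluster, rpoA, correlated with them at only 0.52 to 0.62 and was most like rps18 (0.90) and rpl20 (0.89), which lie elsewhere. These values describe 6 points that share arrays and scaling.

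The cluster of ndhH, ndhA, ndhI, ndhG, ndhE, psaC and ndhD was uneven. The pair ndhH and ndhI had an r of 0.98, and ndhG, ndhE and ndhD correlated with each other at 0.94 to 0.96, while ndhH correlated with ndhE at 0.55 and with ndhD at 0.64. The ndhA profile was nearer to ndhE (0.89), ndhG (0.87) and ndhD (0.82) than to its neighbours ndhH and ndhI (both 0.75). In embryo proper against endosperm the 3 genes at the ndhH end were called higher (1.27 to 1.57) and ndhG, ndhE and ndhD were not (0.33 to 0.42). The ndhJ, ndhK and ndhC genes of another unit correlated at 0.79 to 0.92, and none of them was called between embryo proper and endosperm. The ribosomal protein gene rps14 shares a transcription unit with psaA and psaB of photosystem I and correlated with them at 0.98 and 0.93, but was most like atpF (0.995) and psbH (0.99), which belong to other units. Its intensities were 5393 and 4973 in embryo proper and 7457 and 4210 in peripheral endosperm, and its difference between embryo proper and endosperm was 0.31 ± 0.25 (adjusted p = 0.478). The rpl33 and rps18 genes of 1 unit correlated at 0.84. The range for members of different units, -0.21 to 0.99, holds nearly all values of every unit given here. It therefore sets no unit apart.

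Endosperm and seed coat differed for fewer members. Of the 29, 7 were called higher in endosperm (ndhD, ndhE, rps4, rps14, rpl14, rpl16 and rpl32) and none lower, where 9.00% of all probe sets were called higher and 12.9% lower, and 13 of the 40 other plastid genes were called higher. The rpl32 difference was the greatest, at 2.07 ± 0.22 (adjusted p = 6.96e-07), followed by rps14 at 1.28 ± 0.20 (adjusted p = 6.17e-05) and rps4 at 1.24 ± 0.14 (adjusted p = 1.14e-06). Median differences were 0.52 for ndh, 0.15 for rpo and 0.84 for ribosomal protein genes, against 0.86 for other plastid genes. The rpoA gene lay the other way at -0.84 ± 0.15 (adjusted p = 0.000269), as did rpl20 at -0.69 ± 0.15 (adjusted p = 0.00164), both short of the 2-fold criterion. The count of 7 became 4 without chalazal endosperm replicate 2, 4 without both micropylar endosperm arrays, 4 under quantile normalisation and 13 under median centring, which moves the median of all probe sets in this comparison by 0.28. Among all calls in this comparison, 41.0% were higher in endosperm, against 60.6% under median centring.

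Micropylar and peripheral endosperm were not told apart by these genes. No member was called in limma's test, where 1.89% of all probe sets were called higher in micropylar endosperm and 1.05% lower, and 4 of 29 members had an unadjusted p under 0.05, as had 16.4% of all probe sets. The lowest adjusted p was that of ndhA at 0.0637, with a difference of 0.99 ± 0.28.

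Both chalazal regions were low for part of the members, and ndhA, ndhE and rpl22 were called lower in both. Chalazal endosperm was set against the mean of micropylar and peripheral endosperm, and 9 of the 29 members were called lower (ndhA, ndhE, rps2, rps3, rps14, rps16, rps19, rpl22 and rpl32), where 12.0% of all probe sets were. These were 2 of 10 ndh, none of 4 rpo and 7 of 15 ribosomal protein genes, beside 13 of the 40 other plastid genes. The median difference was -0.66 for the members (23 of 29 negative) and -0.79 for the other plastid genes (36 of 40 negative). Centred on the median deviation of the other plastid genes, 0 members were called lower and only ndhH higher (1.01 ± 0.28, adjusted p = 0.00675). On that scale 1595 of the 22746 probe sets were called lower and 8515 higher. Without that centring the rps3 and rps19 differences were -1.31 ± 0.22 (adjusted p = 0.000168) and -1.31 ± 0.26 (adjusted p = 0.000834). The uncentred differences of ndhC, ndhH, ndhI, ndhJ, ndhK and rpl20 were positive but at most 0.29. The count was 5 without micropylar endosperm replicate 3, 5 without peripheral endosperm replicate 1 and 5 without both micropylar arrays.

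Chalazal seed coat was below general seed coat for all 29 members (median difference -0.95) and for all 40 other plastid genes (median difference -0.92). Centred on the median deviation of the other plastid genes, 0 of the 29 members were called. On that scale 411 of the 22746 probe sets were called lower and 5298 higher. Without that centring 13 members were called lower, where 5.07% of all probe sets were called lower and 4.82% higher. They were 7 of 10 ndh genes (ndhA, ndhE, ndhG, ndhH, ndhI, ndhJ and ndhK), rpoB and rpoC2, and rpl14, rpl16, rpl22 and rpl36, beside 14 of the 40 other plastid genes. The differences of rpoC2 and ndhI were -1.62 ± 0.27 (adjusted p = 0.00053) and -1.59 ± 0.31 (adjusted p = 0.00194). None of the 8 rps genes was called, with differences from -0.94 to -0.25. The ndhJ call (-1.05 ± 0.32, adjusted p = 0.0425) was lost in 12 of 21 alternative settings.

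The difference between these chalazal contrasts was itself tested, a comparison added after the data were seen. It was called for 4 of 29 members, ndhI (1.68 ± 0.41, adjusted p = 0.00927), ndhK (1.64 ± 0.42, adjusted p = 0.0139), rpoC2 (1.59 ± 0.36, adjusted p = 0.00571) and ndhH (1.55 ± 0.40, adjusted p = 0.0146), where 6.65% of all probe sets were called higher and 7.76% lower. For these 4 the difference between chalazal and other endosperm lay between -0.03 and 0.29, while chalazal seed coat was called lower than general seed coat. For ndhK (245011_at), chalazal endosperm had 1916 and 3177, micropylar endosperm 2185 and 1223 and peripheral endosperm 3154 and 2763, while chalazal seed coat had 1088 and 855.6 and general seed coat 2685 and 2782. The count was 2 without chalazal seed coat replicate 2.

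**Figure D5:**
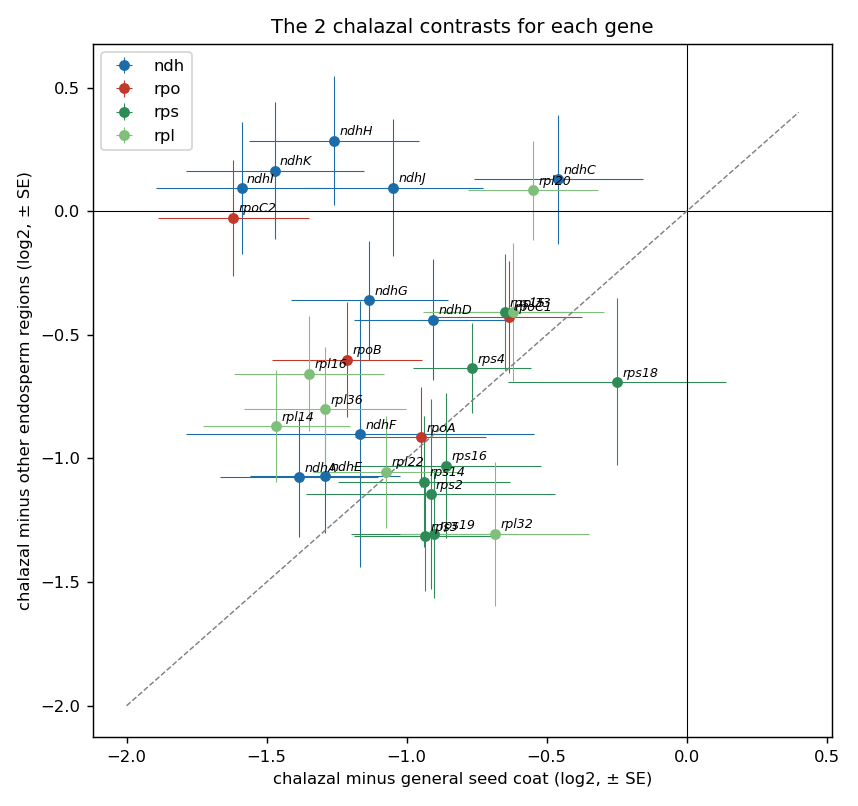
Each point is 1 of the 29 genes, with the log2 difference of chalazal minus general seed coat on the x axis and of chalazal minus the other endosperm regions on the y axis; error bars are SE and the dashed line marks equal differences. The ndhH, ndhI, ndhJ, ndhK and rpoC2 genes lie near 0 on the y axis and below -1 on the x axis, and rps3, rps19 and rpl32 lie below -1.3 on the y axis.

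Whole seeds hold all compartments and were compared with the unweighted mean of the 6. Of the 29 members, 5 were called higher in whole seeds (ndhG, ndhI, rpoC1, rpoC2 and rps14) and none lower, where 3.85% of all probe sets were called higher and 0.541% lower, beside 9 of the 40 other plastid genes. The rpoC1 difference was 1.28 ± 0.20 (adjusted p = 0.000591). For 4 members (ndhE, ndhF, ndhG and rps14) whole seeds lay above every compartment mean, as for 21 of the 40 other plastid genes. For ndhG (244934_at) whole seeds had 6030 and 5277, against 2896 and 4544 in embryo proper and 1067 to 3488 in the other compartments. The count of 5 was 0 without whole seeds replicate 1, 1 without whole seeds replicate 2 and 0 under median centring, which lowers the median of all probe sets here by 0.36 and leaves 45.4% of all calls on the higher side, against 87.7%.

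Nuclear genes for the same machineries were followed where a probe set named them alone. Of nuclear genes for plastid ribosomal proteins, 3 of 16 small subunit and 7 of 24 large subunit genes had a probe set. All 3 small subunit and 6 of the 7 large subunit genes were called higher in embryo proper than in endosperm, and all 10 higher than in seed coat. Of all probe sets 8.84% were called higher in embryo proper than in endosperm, and 13.4% higher than in seed coat. AT2G43030, a plastid L3 protein gene, averaged 10252 ± 699 in embryo proper and 475 ± 103 in chalazal, 4623 ± 829 in micropylar and 4312 ± 125 in peripheral endosperm (SD, n = 2 each). It averaged 406 ± 34.0 in chalazal and 1554 ± 157 in general seed coat, and its difference between embryo proper and endosperm was 2.25. Greater differences in that comparison were called for the small subunit gene AT5G24490 (3.18, adjusted p = 0.00265) and the large subunit gene AT5G47190 (2.32, adjusted p = 0.000383). The median difference between embryo proper and endosperm was 1.35 for the plastid-encoded ribosomal protein genes, against 1.72 for the nuclear small subunit and 1.79 for the nuclear large subunit genes. In chalazal endosperm 3 of 3 small subunit and 4 of 7 large subunit genes were called lower than in the other endosperm regions. Of all probe sets 12.0% were called lower in that comparison.

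For the NAD(P)H dehydrogenase-like complex only 4 of 20 nuclear subunit genes and 1 of 7 biogenesis genes had a probe set. NdhS, the ferredoxin-binding subunit, averaged 2511 ± 315 in embryo proper, 188 ± 191 in chalazal, 3167 ± 318 in micropylar and 2370 ± 687 in peripheral endosperm, and 136 ± 22.7 in chalazal and 271 ± 160 in general seed coat (SD, n = 2 each). It was called higher in embryo proper than in seed coat (3.54, adjusted p = 9.23e-06) and lower in chalazal endosperm than in the other endosperm regions (-3.97, adjusted p = 2.88e-06), and the other 3 subunit genes had no call in these comparisons. CRR21, an RNA editing factor for ndhD, was called higher in embryo proper than in seed coat (1.67, adjusted p = 0.0317), at low intensity (132 ± 3.32 in embryo proper). The 6 sigma factor genes and the 13 genes for polymerase-associated proteins had no probe set that named them alone, and of the 3 phage-type polymerase genes AT5G15700 alone had one, with group means of 2.46 to 70.9.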

How the data were processed

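The authors deposited linear signal intensities per probe set, made with GCOS per the submitters' processing notes and scaled to a 2% trimmed mean of 500 per array; of GCOS no version is given here. Of 22810 probe sets, 64 controls were left out. The platform annotation named 1 gene for 13513 of the other 22746 probe sets, several for 503 and none for 8730, and 13436 of the singly named were found in RefSeq's TAIR10.1 gene table, which served for names and for gene order only. The genome build behind the annotation is unnamed, so no coordinates are printed.

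One model was fitted to log2(intensity + 32) of all 14 arrays and 22746 probe sets with limma 3.58.1 in R 4.3.3 (lmFit, eBayes with an intensity trend, 7 residual degrees of freedom per probe set). No filter on low values was applied, so all 29 members were tested. P-values were adjusted by the Benjamini-Hochberg method over all probe sets, and differences of 2-fold or more (1 on the log2 scale) with an adjusted p below 0.05 were called; the F test over compartments used the adjusted p alone. With 2 arrays a group the number of arrays limits the precision. Errors on log2 differences are the fit's SE.

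Members, gene lists and tests were chosen with earlier results of these data known. Values of every array are given for all rpo genes and, in each of the ndh, rps and rpl classes, for the 3 genes with the greatest and the 1 with the smallest range of compartment means, with ranges for the rest; rps14, rpl20, ndhE, ndhG and ndhK were added after their values were seen. Of the nuclear lists only some members are named. AT2G43030 is not the plastid ribosomal protein gene with the greatest called difference. The transcription units are textbook knowledge. Profile likeness is Pearson's r over the 6 compartment means and carries no p.

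The labels call the arrays biological replicates. Deviations of same-numbered arrays correlated between -0.0374 and 0.0253 over 21 pairs of groups, none above 0.1, so numbers were not used as a pairing. On simulated intensities for the 22746 probe sets with 200 changed, the comparison of embryo proper with endosperm recovered 34.5% of changes of 1.5, 74.0% of changes of 2 and 92.5% of changes of 3 on the log2 scale. False calls numbered 2, 4 and 5. These shares are over all probe sets and are not a recovery for the members. Apart from ndhF, every member ranked at percentile 67.9 or higher on every array. The alternatives tried were 2 other pseudocounts, a filter on low values, quantile normalisation, median centring, a replicate block, leaving out each array in turn and, added after the data were seen, leaving out both micropylar endosperm arrays.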

Additional observations from a re-analysis of the deposited data

Results flagged for a closer look

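The 4 genes ndhI, ndhK, rpoC2 and ndhH had chalazal differences in the endosperm and in the seed coat that were not equal by a test of the difference itself (limma, all arrays in 1 fit). The difference of the chalazal contrasts, endosperm minus seed coat, was 1.68 for ndhI (adjusted p = 0.00927), 1.64 for ndhK (adjusted p = 0.0139), 1.59 for rpoC2 (adjusted p = 0.00571) and 1.55 for ndhH (adjusted p = 0.0146). No ribosomal protein gene passed this test, with differences from -0.62 to 0.69, and 3 of the 40 other plastid genes did (psbA, ycf3 and psbF). Of all probe sets 6.65% were called higher in this test and 7.76% lower. The test was added after the data were seen.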

How the results depend on the processing

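Of 75 calls of members over the 7 comparisons, each recomputed under 21 alternatives, 1475 of the 1575 values kept their call, 100 kept their direction only and 0 changed direction. The 18 members higher in embryo proper than in endosperm ranged from 16 to 18 when 1 array was left out, the 23 against seed coat from 22 to 24, the 13 lower in chalazal seed coat from 9 to 13, and the 26 in the F test from 24 to 28. Counts of members called lower in embryo proper stayed at 0. For endosperm against seed coat the count of 7 called higher ranged from 4 to 8 with 1 array left out, was 4 under quantile normalisation, 13 under median centring and 4 without both micropylar endosperm arrays, and 1 member (rpoA) was called lower under quantile normalisation and 1 without both micropylar arrays. The median difference of the rpo genes in that comparison was -0.019 without both micropylar arrays, against 0.15 in the full fit. For chalazal endosperm the count of 9 called lower ranged from 5 to 9 with 1 array left out and was 5 without both micropylar arrays. In whole seeds the count of 5 called higher ranged from 0 to 5 and was 0 under median centring. With the replicate block, which rests on replicate numbers only, the chalazal endosperm count was 5. Micropylar endosperm replicate 3 is the only array with its number. The block thus gives that array a term of its own and in effect sets it aside. The cause of these changes was not tested. Median centring moves the median of all probe sets by -0.14 for embryo proper against endosperm, 0.14 for embryo proper against seed coat, 0.28 for endosperm against seed coat and -0.36 for whole seeds. The share of all calls on the higher side was 50.9% for endosperm against seed coat under quantile normalisation, against 41.0%.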
